A study of Mus musculus with 7 samples.

Results

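Mouse J1 embryonic stem cells that lack Uhrf1 and carry a triple lysine mutant of human UHRF1 were compared with the Uhrf1-/- cells they were made from, to ask where the mutant leaves DNA more methylated than no UHRF1 at all. UHRF1 is the protein that carries DNA methylation through cell division. Its SRA domain binds CpG sites that are methylated on the old strand only, and its RING domain ubiquitinates histone H3, which together bring the maintenance methyltransferase DNMT1 to newly made DNA. The mutant exchanges lysine for arginine at 3 positions between these domains (K667R, K668R and K670R) and is called 3KR here. Such an exchange keeps the positive charge and is widely used to stop a lysine from being acetylated or ubiquitinated.

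The comparison used 3 of the 7 libraries of the study: 1 of the 3KR rescue (Uhrf1-/- cells expressing the tagged human mutant) and 2 of Uhrf1-/- cells. Beside them, as levels only, stand 1 library of Uhrf1-/- cells rescued with wild-type human UHRF1 and 2 of wild-type J1 cells. Rescued cells were selected with hygromycin and grown from single colonies, so a rescue library speaks for the picked cells only, and the UHRF1 protein level of the mutant line was not analysed here. Nothing in the labels ties the paired libraries to separate cultures, and the spread between them may be technical. Methylation was measured by reduced representation bisulfite sequencing, which cuts DNA with restriction enzymes to enrich CpG-rich fragments and reads each cytosine as methylated or not. All 18189 sites of the rescue table were used, each with at least 5 reads in every library. The reads over these sites summed to 393086 in the 3KR rescue and to 615917 and 531050 in the Uhrf1-/- libraries.

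The 3KR rescue was more methylated than both Uhrf1-/- libraries by a small amount that was spread over the whole genome. Its mean over all sites was 15.2%, against 9.36% and 9.82% in the Uhrf1-/- libraries (9.59 ± 0.326, SD, n = 2). The difference of 5.57 percentage points was 12.1 times the gap of 0.461 points between the Uhrf1-/- libraries. Cells given the wild-type protein stood at 45.3% and wild-type cells at 49.1 ± 1.25% (SD, n = 2), so the mutant line lay far nearer to the knockout than to either. With 1 library against 2, an exact permutation test of a library mean has 3 arrangements and cannot give a p below 0.333, so means were not tested.

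All 19 autosomes took part. On each of them the 3KR rescue was above both Uhrf1-/- libraries. Its difference from their mean was 4.0 points on chromosome 17 at the least and 7.52 points on chromosome 12 at the most, whereas library 2 of Uhrf1-/- minus library 1 ran between -0.916 and 1.95 points. The X chromosome, with 99 sites, had 16.0% in the 3KR rescue, against 9.53% and 9.03% in the Uhrf1-/- libraries. The mitochondrial genome, which carries almost no CpG methylation, served as a measure of background. Its 39 sites had 0.738% methylated reads in the 3KR rescue (Wilson 95% interval 0.619 to 0.880), against 0.792% and 1.02% in Uhrf1-/-. The nuclear difference therefore had no counterpart in the mitochondrial reads.

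The difference followed how methylated a site is in wild-type cells, which is a measure outside the compared groups. Over the 1689 sites with 0 to 20% methylation in wild type, the 3KR rescue had 1.88%, against 1.52% and 1.73% in Uhrf1-/-. At the 283 sites with 40 to 60% in wild type it had 13.6%, against 8.19% and 7.42%. At the 1049 sites above 80% in wild type it had 27.1%, against 15.7% and 16.8%. The sites most methylated in wild-type cells thus gave the widest difference, 10.9 points, and the least methylated ones gave 0.256 points, beside an SD of 0.149 points between the Uhrf1-/- libraries. The share of sites at least 20 points above the Uhrf1-/- mean was 28.9% (303 of 1049) in the most methylated range and 1.42% (24 of 1689) in the least, and the share as far below was 4% and 0.237%. A site below 20% in Uhrf1-/- cannot fall that far, so the shares below are limited by that floor. These values required at least 10 reads in each of the 6 libraries. With at least 20 reads, 69 sites above 80% remained, and their difference was 17.8 points. Sites of the deepest loci, such as chr2:98666770 with 55.5 points, weigh more among 69 sites than among 1049. Their part in the rise was not tested. With at least 10 reads and without loci of 100 or more reads per site, the difference above 80% was 10.3 points.

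**Figure D1:**
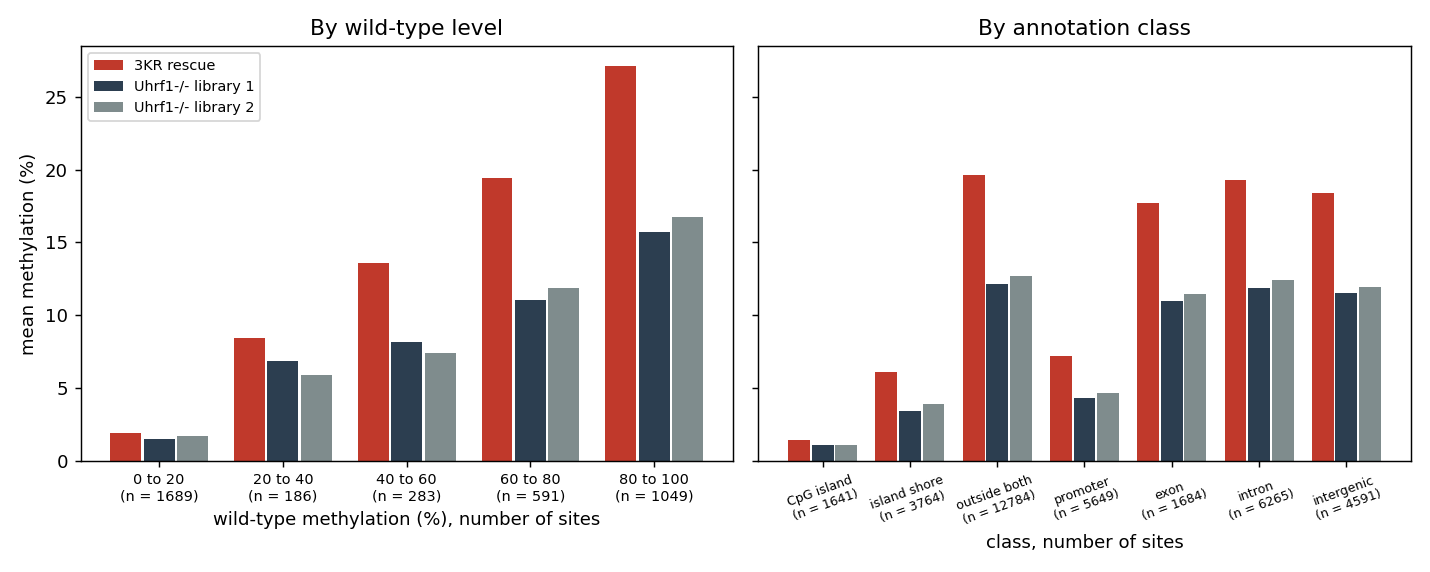
Mean methylation (%, vertical axis) in the 3KR rescue and the 2 Uhrf1-/- libraries by wild-type level of the site (left, sites with at least 10 reads in 6 libraries) and by annotation class (right, all sites), 1 bar per library. The bars of the 3KR rescue stand above both others in every class shown, by least at sites up to 20% in wild type (1.88% against 1.52% and 1.73%) and by most at sites above 80% in wild type (27.1% against 15.7% and 16.8%).

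Annotation classes ordered themselves the same way. CpG islands, which are mostly unmethylated in stem cells, had 1.42% in the 3KR rescue, against 1.09% and 1.07% in Uhrf1-/-. Sites outside islands and shores had 19.6%, against 12.2% and 12.7%. Promoters as the authors annotated them had 7.21%, against 4.29% and 4.68%. Introns, with 19.3% against 11.9% and 12.4%, were close to exons, with 17.7% against 11% and 11.5%, and to intergenic DNA, with 18.4% against 11.6% and 12%. By the Uhrf1-/- mean, the order of classes was another among sites above 80% in wild type. There promoters had the widest difference of these 4 gene annotations, with 29.8%, against 13% and 16% (162 sites), or 15.3 points, and 11.8 points without loci of 100 or more reads per site. Introns there differed by 11 points, exons by 9.71 and intergenic DNA by 9.07. Without loci of 100 or more reads per site, the order of promoters and introns depended on the knockout library. Promoters then differed by 13.6 points and introns by 11.2 from library 1, and by 10.1 and 10.7 from library 2. With distance from the nearest transcript start the difference widened, being 2.11 points within 200 bases and 7.56 points at 10001 to 50000 bases, while the ratio of the 3KR rescue to Uhrf1-/- stayed between 1.52 and 1.64 over all 8 distance ranges. The 3KR level was thus about the same multiple of the knockout level near to and far from genes.

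Higher loci outnumbered lower ones. Reads were next summed over loci, meaning runs of listed sites at most 200 bases apart, and the 1902 loci with at least 3 sites and at least 30 reads in each of the 3 libraries were compared. Levels of a locus are unweighted means over its sites. The 3KR rescue was above both Uhrf1-/- libraries at 924 loci (48.6% of those compared), below both at 282 (14.8%), and between or equal at 696, of which 158 were at 0 in all 3 libraries. It exceeded the Uhrf1-/- mean by at least 20 points at 210 loci (11%) and lay as far below it at 7 (0.368%). A fall of 20 points needs a Uhrf1-/- mean of at least 20%. The upper quartile of locus levels was 13.7% in library 1 and 14.6% in library 2, so most loci could not count as lower by this rule. Between the Uhrf1-/- libraries themselves, library 1 was higher by at least 20 points at 43 loci (2.26%) and library 2 at 60 (3.15%). A mean of 2 libraries is steadier than 1, so single sites were also compared library against library. Of 7287 sites with at least 10 reads, 1149 (15.8%) were at least 20 points above the Uhrf1-/- mean and 204 (2.8%) as far below it, with 870 (11.9%) that far above both libraries and 77 (1.06%) below both. Outside islands and shores 20.9% of sites were that much higher and 3.89% lower, and in CpG islands 1.24% and 0%. Island sites near 0 in Uhrf1-/- cannot fall 20 points. Library by library, the 3KR rescue was at least 20 points above Uhrf1-/- library 1 at 1247 (17.1%) and below it at 347 (4.76%), and the values against library 2 were 1225 (16.8%) and 346 (4.75%). The 2 knockout libraries differed that far at 517 sites (7.09%) in one direction and at 574 (7.88%) in the other.

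**Figure D2:**
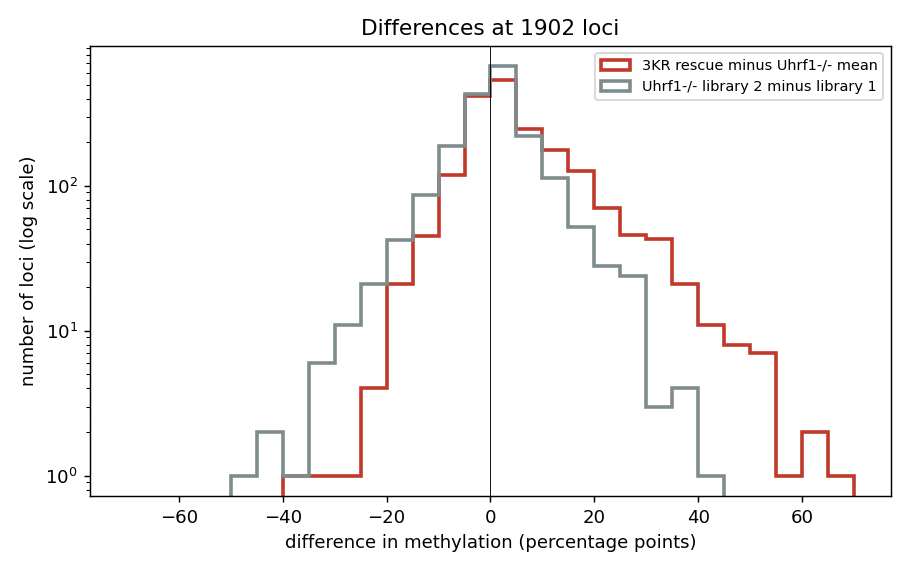
Differences in methylation (percentage points, horizontal axis, bins of 5 points) at 1902 loci, for the 3KR rescue minus the Uhrf1-/- mean and for Uhrf1-/- library 2 minus library 1, with the number of loci on a log axis. The first distribution has its long side to the right (95th percentile 29.7 points, highest 65.2), and the second is about even (5th percentile -14.3, 95th percentile 16.7).

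Among the 888 loci with at least 60% methylation in wild type, the median level was 22.9% in the 3KR rescue (quartiles 13.9 and 32.8%), against 13.3% for the Uhrf1-/- mean. A level of 50% or more was reached at 64 of these loci in the 3KR rescue, against 9 and 7 in the Uhrf1-/- libraries, while the wild-type rescue reached it at 772. The 3KR rescue was at 0 at 42 of them, against 62 and 51. Even where wild-type DNA is heavily methylated, most loci of the mutant line therefore stayed low.

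Sites without a methylated read in 1 knockout library were higher in the mutant line than in the other knockout library. To avoid choosing sites by the values compared, sites were placed by one Uhrf1-/- library and read in the other. At the 3903 sites without a methylated read in library 1, the 3KR rescue had 7.66%, against 4.53% in library 2. With the libraries exchanged (3959 sites) it had 8.30%, against 4.70% in library 1. At the other end, the 63 sites above 60% in library 1 had 42.2% in the 3KR rescue, against 35.7% in library 2, and the 61 such sites of library 2 had 47.3%, against 36.0% in library 1. The ratio of the 3KR rescue to the knockout library read beside it ran between 1.18 and 1.97 over the 14 ranges, and it was highest where the placing library had 0 to 10%.

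At equal depth the mutant line held fewer empty sites and more half-methylated ones. The share of sites with 0 methylated of 10 drawn reads was 52.3% in the 3KR rescue, against 62.6% and 61.8% in Uhrf1-/- (45% against 53.6% and 54.3% with all reads). Sites with 5 to 10 methylated of 10 made up 9.24%, against 3.45% and 3.44%, and sites with 8 to 10 made up 1.30%, against 0.362% and 0.389%. Sites with 8 to 10 of 10 methylated were thus rare in all 3 libraries. Over 3798 sites with at least 10 reads in each of the 6 libraries, they made up 32.2% and 33.8% in wild type and 23.2% in the wild-type rescue.

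Neighbouring sites differed alike over short distances. The 3411 nuclear sites used had at least 60% in wild type and at least 10 reads in the 3 libraries. Stretches of 10 kb with more than 15 such sites were left out. The difference of the 3KR rescue from Uhrf1-/- at one site correlated with that at another 2 to 25 bases away with r = 0.42 (1035 pairs), and with r = 0.37 at over 100 and up to 200 bases (279 pairs). Beyond 5 kb and up to 50 kb r was 0.017 (872 pairs). The same correlations for Uhrf1-/- library 2 minus library 1 were 0.30, -0.015 and 0.095. Sites within 200 bases often share reads and fragments, so these values describe loci and not independent sites.

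Single loci could be tested only by borrowing the spread of the replicated groups. The quasi-likelihood test of edgeR, run on both kinds of read with the spread taken from the Uhrf1-/- and wild-type pairs, called 1 of 1744 testable loci higher in the 3KR rescue (0.0573%) and 0 lower at a Benjamini-Hochberg adjusted p under 0.05, with 122 and 30 at an unadjusted p under 0.05. limma on the level called 0 and 0, with 226 and 17 unadjusted. At single sites edgeR called 10 of 5231 higher (0.191%) and 0 lower, with 176 and 10 unadjusted, and limma called 239 higher (4.57%) and 6 lower (0.115%). When either Uhrf1-/- library was left out, edgeR called 0 sites and 0 loci, with 35 and 62 sites and 82 and 109 loci higher at an unadjusted p under 0.05. Leaving out wild-type library 1 or 2 gave 17 and 16 sites and 7 and 6 loci.

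All 10 called sites lay in the called locus, chr2:98666385-98667255. The authors' table annotates it as promoter, and the nearest RefSeq gene start, that of Gm33780, lies 43.6 kb away. It is in an interval of the mm10 build known for satellite repeats, where reads of many copies gather. No repeat annotation was used here. Its 29 sites averaged 49.6% in the 3KR rescue, against 9.50% and 9.52% in Uhrf1-/-, a difference of 40.1 points (edgeR, adjusted p = 0.00263). The wild-type rescue had 75.1% there and the wild-type libraries 78.0% and 84.0%. Reads per site averaged 497 in the 3KR rescue, against 1964 and 2860 in Uhrf1-/- and 258 in the wild-type rescue. Depth at this locus moved with the groups, and its part in the result was not tested.

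**Figure D3:**
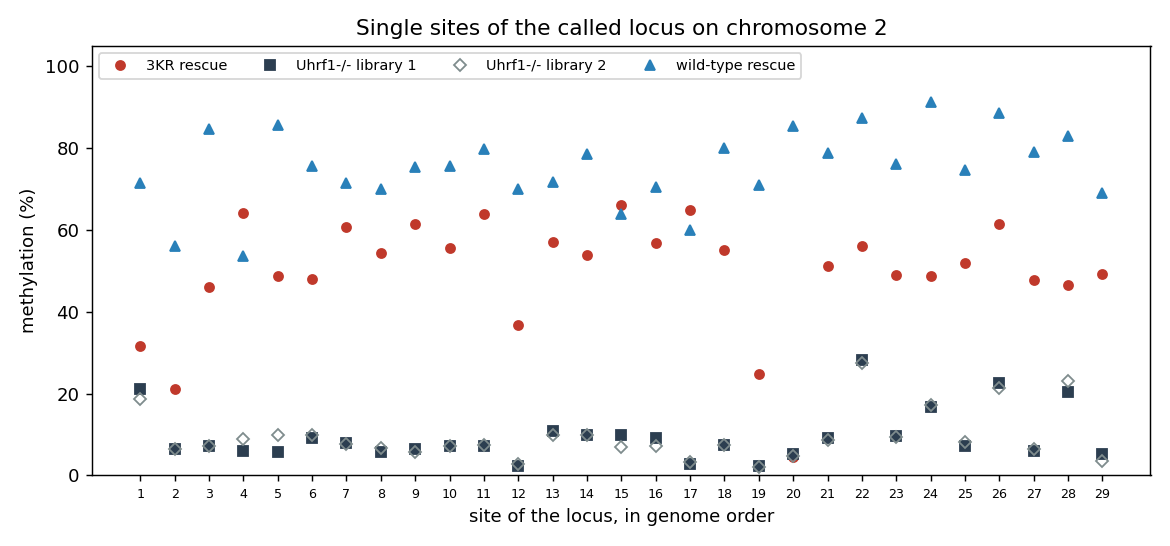
Methylation (%, vertical axis) at the 29 sites of the called locus in genome order, with 1 point per library for the 3KR rescue, the wild-type rescue and the Uhrf1-/- libraries. Red points of the mutant line lie above both Uhrf1-/- libraries at 28 sites and at their level at 1 (4.41% against 5.12% and 4.85%).

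Within this locus the 3KR rescue was above both Uhrf1-/- libraries at 28 of 29 sites, with a lowest level of 4.41%, a median of 52.0% and a highest of 66.1%. The Uhrf1-/- libraries had medians of 7.31% and 7.55%. The exception was the minus-strand cytosine at position 98667108, with 4.41% of 68 reads in the 3KR rescue, against 5.12% and 4.85%. Its partner on the plus strand had 24.7%, against 2.43% and 2.09%. At the next CpG read on both strands, the plus strand had 51.1%, against 9.15% and 8.69%, and the minus strand 56.0%, against 28.2% and 27.4%. The strands lay farther apart in the knockout libraries than in the mutant line at this CpG.

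Other loci with very many reads did not all behave this way. Loci that averaged 100 or more reads per site in the 3KR rescue, a limit set after the values were seen, numbered 30, of which 3 were mitochondrial. Of the 27 nuclear ones, 4 were at least 20 points above the Uhrf1-/- mean and 17 were within 5 points of it. Only 10 of the 27 had at least 60% in wild type, among them 3 of the 17. The other 3 of those 4 were chr9:35305300-35305534 in the non-coding gene Gm33838 (43.4%, against 6.68% and 7.02%, edgeR adjusted p = 0.0546), chr9:3001454-3001494 (40.6%, against 9.44% and 6.91%) and chr12:3109883-3110026 (37.3%, against 7.73% and 8.12%). These lie in further satellite-bearing intervals of the build, so the 4 may draw on copies of one repeat and are not independent. Ribosomal DNA copies on chromosome 17, which are almost free of methylation in wild type, had 1.18 to 1.43% in the 3KR rescue over 4 loci, against 1.09 to 1.68% in Uhrf1-/-. A further run of 18 sites among them, chr17:39847632-39847872, had fewer reads and 11.6% in the 3KR rescue, against 1.63% and 1.35%, but the wild-type libraries were at 29.6% and 0% there. Without the 30 loci, the mean over all sites differed by 5.54 points and edgeR called 0 loci, with 110 higher at an unadjusted p under 0.05.

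**Figure D4:**
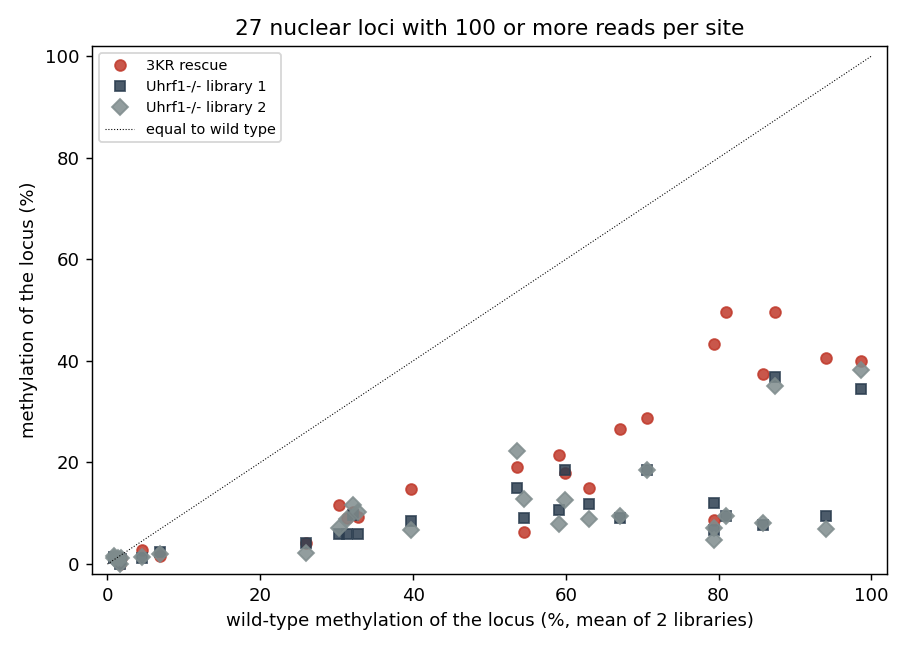
Methylation (%, vertical axis) of the 27 nuclear loci with at least 100 reads per site in the 3KR rescue against their wild-type level (%, horizontal axis), 1 point per library. Of the loci above 75% in wild type, 4 stand at 37.3 to 49.6% in the 3KR rescue where Uhrf1-/- is below 10%, whereas 1 is at 8.72% against 12% and 4.68%.

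A second locus in the same interval of chromosome 2, chr2:98662265-98662795, was split along its length. Its first 6 sites, up to position 98662439, had 20.2 to 54.2% in the 3KR rescue, against 1.36 to 13.7% and 2.02 to 11.3% in Uhrf1-/-. The other 7 sites had 1.53 to 31.6%, against 2.10 to 23.3% and 3.03 to 23.9%. The same stretch of DNA thus held sites with a wide difference beside sites near the knockout level. Among the latter, positions 98662557 (12.8% and 6.61%) and 98662602 (1.47% and 3.53%) were low in the wild-type libraries too. Reads at 98662281 were 445 in the 3KR rescue, 2203 and 3024 in Uhrf1-/- and 255 in the wild-type rescue. At 98662677 they were 3680, 6872 and 6509, and 21308. Depth thus shifted along the locus, and its part in the split was not tested.

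Among loci with at least 3 sites, the widest differences lay in RefSeq gene bodies and intergenic DNA that are heavily methylated in wild type. Loci were named by size, taking the 12 farthest above both Uhrf1-/- libraries and the 6 farthest below both. None passed edgeR's test across all loci: adjusted p ran from 0.361 to 0.533 for the 12, each of which had an unadjusted p under 0.05. Widest of all was chr1:132588120-132588197 in Nfasc, the neurofascin gene for a cell adhesion protein of axons, with sites the authors annotated as exon or promoter. Its 6 sites had 79.2% in the 3KR rescue (47 reads, Wilson interval of the pooled reads 65.1 to 88.0%), against 11.1% (5.82 to 20.7%) and 16.8% (10.6 to 27%) in Uhrf1-/-. The wild-type rescue had 85.3% and the wild-type libraries 100% and 94.8%. In these reads the mutant line was near the rescued level, but a high 3KR level is what placed this locus at the top. The other 11 loci had 56.4 to 70.5% in the 3KR rescue.

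An exon of Pmfbp1, which is needed to join the sperm head to its tail (chr8:109530217-109530328), had 70.0% in the 3KR rescue, against 11.3% and 7.14%, and the wild-type rescue had 71.1%. The locus within Acr, the acrosin gene of the sperm acrosome (chr15:89575596-89575713), had 65.0%, against 21.2% and 8.89%. RefSeq places it in Acr, whereas the authors' table calls it intergenic. An intron of Dnah1, an axonemal dynein heavy chain of cilia and sperm tails (chr14:31278555-31278609), had 56.4%, against 0% (no methylated read of 43) and 5.33%. At all 3 the mutant line stood apart from both knockout libraries, which is how they were chosen.

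An intron of Kat6a, a histone acetyltransferase (chr8:22916127-22916204), had 62.8%, against 14.3% and 6.25%. An intron of Zfp462, a zinc finger protein (chr4:55013991-55014078), had 64.2%, against 5.21% and 14.6%. Sites within Myo1c, a motor protein of the cell cortex (chr11:75670028-75670154), had 60%, against 10.2% and 5.00%, and the authors annotated them as promoter. In an intron of the lens crystallin gene Crygn (chr5:24755494-24755552) the 3KR rescue had 59.0%, against 13.4% and 0%. All of these had at least 78.9% in the mean of the wild-type libraries.

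The remaining 4 lay between genes. The locus at chr18:53147665-53147782, 28.5 kb from the sorting nexin gene Snx2, had 70.5% in the 3KR rescue, against 6.67% and 13.3%, and was above the wild-type rescue with 53.9%. The locus at chr4:148204760-148204843, 31.6 kb from Disp3, had 61.1%, against 0% and 7.38%. Those at chr7:133500419-133500543 and chr3:155752896-155752965 had 60.2%, against 2.20% and 18.1%, and 56.9%, against 11% and 0%. The next locus in the order, at chr11:117368016-117368052 near Septin9, had 70.6%, against 22.7% and 20.6%.

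**Figure D5:**
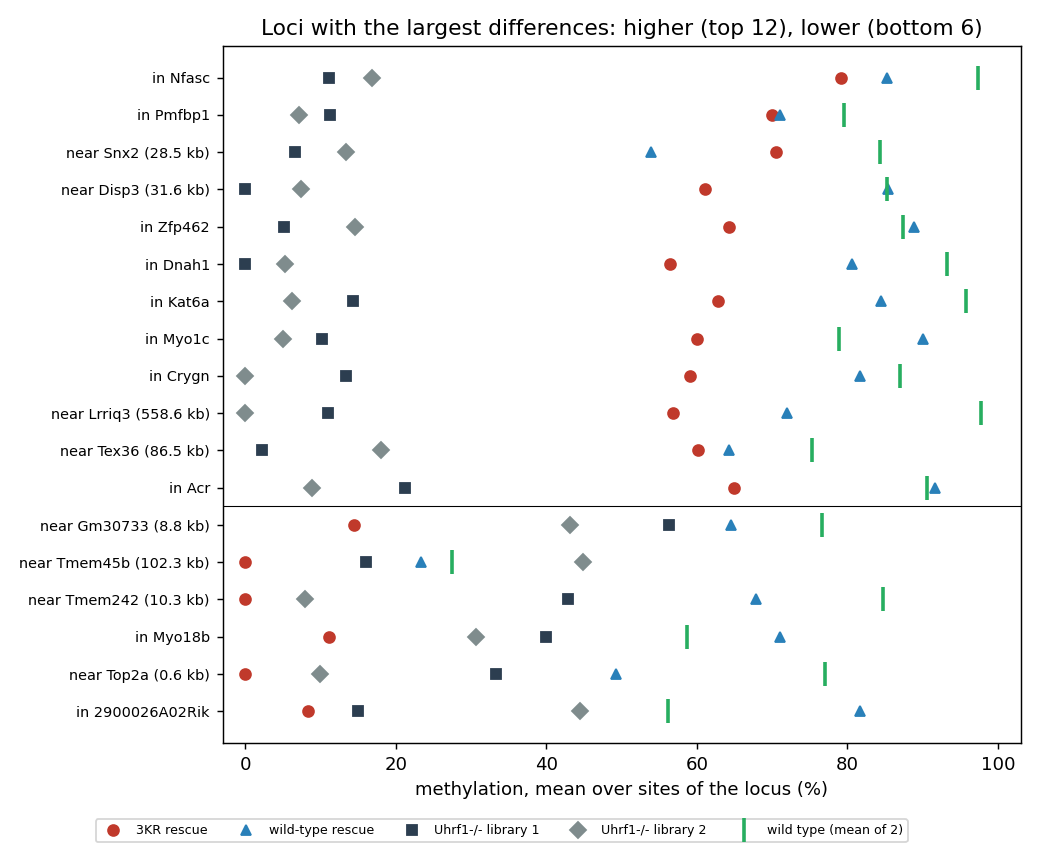
Methylation (%, horizontal axis) of the 12 loci farthest above both Uhrf1-/- libraries (top) and the 6 farthest below both (bottom), named by the nearest RefSeq coding gene, 1 point per library and a bar for the mean of the 2 wild-type libraries. At the 12 upper loci the 3KR rescue lies at 56.4 to 79.2%, right of both Uhrf1-/- libraries, and at the 6 lower ones at 0 to 14.5%, left of both.

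The 6 loci farthest below both Uhrf1-/- libraries had 0 to 14.5% in the 3KR rescue. The farthest, chr2:166268858-166268967 in intergenic DNA, had 14.5% in the 3KR rescue, against 56.3% and 43.2%, and 64.5% in the wild-type rescue. Exonic sites of Myo18b, a myosin of striated muscle (chr5:112873927-112874060), had 11.2%, against 40% and 30.7%. Upstream of Top2a, the topoisomerase of dividing cells (chr11:99024782-99024821), no read of 40 was methylated in the 3KR rescue (Wilson upper bound 8.76%), against 33.3% and 9.89%. At the remaining 3 loci the knockout libraries lay 28.8 to 34.9 points apart, with 0%, against 16.1% and 44.9% in the non-coding gene Gm31408 (chr9:31566526-31566642), 0%, against 42.9% and 8% near Tmem242 (chr17:5400458-5400560), and 8.33%, against 15.0% and 44.4% in 2900026A02Rik (chr5:113176130-113176179). Adjusted p ran from 0.388 to 0.663 for these 6 loci (edgeR). The locus just outside, chr1:151200379-151200511, had 3.33%, against 26.4% and 22.0%.

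Promoters showed where a methylated stretch can be read base by base. RefSeq promoter windows of 250 bases before the gene start held measured CpGs, and 4 are shown here, picked after their values were seen. The first 3 were higher in the 3KR rescue and the fourth was not. Sequences are from RefSeq for GRCm38.p6 on the strand of the gene, with the CpG of each measured site in capitals. The cytosine that was read is on the printed strand in Tmem88b and Qrich2, and on the opposite strand, facing the capital G, in Tmprss12 and Chadl.
Tmem88b: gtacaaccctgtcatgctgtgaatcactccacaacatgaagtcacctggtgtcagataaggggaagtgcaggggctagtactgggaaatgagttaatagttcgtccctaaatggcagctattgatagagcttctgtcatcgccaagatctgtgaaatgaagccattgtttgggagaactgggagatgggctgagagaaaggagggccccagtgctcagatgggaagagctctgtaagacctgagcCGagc
Tmprss12: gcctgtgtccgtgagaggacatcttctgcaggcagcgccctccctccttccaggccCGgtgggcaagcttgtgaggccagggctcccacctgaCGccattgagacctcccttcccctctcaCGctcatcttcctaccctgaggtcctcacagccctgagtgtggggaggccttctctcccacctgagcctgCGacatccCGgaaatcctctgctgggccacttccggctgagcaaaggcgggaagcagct
Chadl: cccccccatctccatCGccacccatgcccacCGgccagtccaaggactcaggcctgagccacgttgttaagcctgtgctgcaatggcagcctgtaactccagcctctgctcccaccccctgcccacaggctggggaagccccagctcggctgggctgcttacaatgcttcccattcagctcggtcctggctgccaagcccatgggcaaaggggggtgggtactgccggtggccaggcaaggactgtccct
Qrich2: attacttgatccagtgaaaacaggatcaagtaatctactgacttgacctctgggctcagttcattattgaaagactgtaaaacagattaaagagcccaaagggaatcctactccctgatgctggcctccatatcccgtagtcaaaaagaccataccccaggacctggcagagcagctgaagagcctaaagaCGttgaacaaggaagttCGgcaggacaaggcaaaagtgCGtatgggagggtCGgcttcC
The windows are chr4:155785875-155786124 (minus strand), chr15:100280587-100280836 (plus strand), chr15:81697288-81697537 (minus strand) and chr11:116454348-116454597 (minus strand). The last capital C of Qrich2 is a measured site whose guanine lies past the end.

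Tmprss12, which encodes a serine protease of the testis, has 5 measured CpGs in this window. The first CpG, at base 57, had 0 methylated of 10 reads in the 3KR rescue and none in the Uhrf1-/- libraries. The 3 at bases 94, 122 and 192 each had 6 of 10 reads methylated in the 3KR rescue, against 2 of 16 reads, none of 16 and 2 of 16 in Uhrf1-/- library 1, and 2 of 8, none of 7 and none of 10 in library 2. The last, at base 200, had 2 of 5 reads methylated in the 3KR rescue, against none of 8 in library 1 and 2 of 5 in library 2. Over the 5 sites the mean was 44.0%, against 5.00% and 13%. The wild-type rescue had 8% and the wild-type libraries 38.7% and 52.4%, so the mutant line was above the wild-type rescue at this promoter. Equal counts at neighbouring sites can come from the same reads.

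At Tmem88b, a measured CpG close to the gene start and one just past it had 61.5%, against 0% and 7.14%, with 18.9% in the wild-type rescue and 60.5% and 90.0% in wild type. Reads were few, with 8 of 13 methylated at each site in the 3KR rescue. Library 2 of Uhrf1-/- had none of 14 at the first site and 1 of 7 at the other. The 2 sites of Chadl, which encodes a cartilage matrix protein, had 41.7% (2 of 8 and 7 of 12 reads), against 17.8% and 7.92%. At Qrich2, which encodes a protein of the sperm tail, the 8 measured sites, of which 3 lie past the printed bases, had 4.17%, against 5.81% and 11.3%, although the wild-type libraries had 41.9% and 63.7%. A promoter methylated in wild type was thus not always higher in the mutant line. By the number of CpGs in the whole window of 300 bases, windows with 0 to 9 CpGs had 11.8%, against 5.39% and 6.97% (80 sites), and windows with 20 or more had 0.637%, against 0.434% and 0.566% (256 sites).

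Promoters and bodies of known gene groups held few measured sites. The promoters of all RefSeq genes with a site, taken as 1000 bases either side of the start, were above both Uhrf1-/- libraries at 212 of 837 (25.3%) and below both at 63 (7.53%), with a median difference of 0. Gene bodies were above both at 1502 of 3267 (46%) and below both at 425 (13%), with a median difference of 2.54 points. Of 32 germline genes, many of which are kept silent by promoter methylation, 5 had a measured promoter: 2 were above both knockout libraries, none was below both, and their median difference was 0. Meioc, which keeps germ cells in meiosis, had 23.3% over 9 sites, against 15.0% and 11.2%. Hormad2, of the meiotic chromosome axis, had 7.58%, against 3.39% and 1.39%. Sycp1, of the synaptonemal complex, had no methylated read of 36, against 0% and 3.33%, where the wild-type libraries had 65.7% and 67.4%. Tdrd1, of the piRNA pathway, had no methylated read at 1 site, against 0% and 14.3%, and Smc1b, a meiotic cohesin, had none in any of the 3 libraries. In gene bodies, the piRNA helicase gene Mov10l1 had 31.6% at 1 site (6 of 19 reads), against 0% and 0%, and the piRNA helicase gene Tdrd9 had 3.33%, against 21.4% and 8.33%.

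Imprinted genes, of which 8 of 30 had sites in the gene body, were above both Uhrf1-/- libraries at 2 and below both at none. Peg10, an imprinted gene derived from a retrotransposon and needed for the placenta, had 62.5% at 4 exonic sites (chr6:4755845-4755893, 32 reads), against 18.3% and 10%, with 79.5% in the wild-type rescue. Grb10, an adaptor of growth factor receptors, had 28.4%, against 5.32% and 14.6%. H19, Kcnq1 and Nnat lay between the knockout libraries, with 5.49%, against 12.9% and 3.12%, with 9.30%, against 20.9% and 2.50%, and with 10%, against 21.1% and 0%. Gnas and Gnasas1, which share 1 measured site and so are a single measurement, and Inpp5f were at 0 in all 3 libraries. The only measured imprinted promoter, Mest, had 11.1%, against 11.1% and 23.8%.

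Measured genes of lineage choice and pluripotency had at most 25% in the 3KR rescue. Of 24 lineage transcription factors, 5 had a measured promoter (2 above both, 1 below both) and 5 a measured body (3 above both, none below). Elf5, a trophoblast factor, had 25% at 2 body sites (4 of 16 reads), against 0% and 11.1%, where wild type averaged 82.6%. Gata4, of endoderm and heart, had 5.19%, against 0% and 0%, and Tbx5, of heart and limb, had 11.3%, against 16.8% and 9.11%, where wild type averaged 50.7%. The body of the muscle factor Pax7 had 4.76%, against 1.00% and 0.588%, and its promoter had 0%, against 1.90% and 1.43%. Promoters of the neural factors Lhx2 and Olig2 had 1.53%, against 0% and 0%, and 2.08%, against 0% and 1.11%. Hoxa9, Neurog1 and Six3 had no methylated read in these 3 libraries. Nor had the pluripotency factors Sox2 and Nr5a2. Of the methylation machinery, Dnmt3b had 16.7% at 3 body sites, against 12.8% and 13.3%, and Dnmt3a had 0% at 1 site (7 reads), against 0% and 10%.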

How the data were processed

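DNA methylation was measured by double-enzyme bisulfite sequencing of mouse J1 embryonic stem cells. The tools named are BSMAP 2.73, Trim Galore and cutadapt, with build mm10, per the submitters' processing notes. The methylation caller is not given in the sources used here. Per the file headers, the authors deposited counts of all, methylated and unmethylated reads per cytosine, strand and library, and the deposited fraction of methylated reads equalled the ratio of these counts. The counts were used here, as percent methylated. Of the methylated counts at partly methylated sites, 77.6% were even in the 3KR rescue, against 75.4% and 72.9% in Uhrf1-/-. Whether both mates of a pair were counted at a site is not stated. If they were, Wilson intervals, which cover counting error only, are too narrow. Median reads per site were 14 in the 3KR rescue, against 14 and 11. The Uhrf1-/- libraries were not copies of each other: at 314 sites with at least 300 reads their coverage gave a mean chi-square of 65.7 per site. Their methylation gave 2.20 per site over 4450 sites, or 1.10 with counts halved.

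Library means were unweighted over sites. Groups came from the sample titles. Sites (at least 10 reads in the 3 libraries) and loci were tested with edgeR 4.0.16 quasi-likelihood fits over 6 libraries, assuming that the 3KR library varies like the replicated groups. An alternative was limma 3.58.1 (R 4.3.3). Only the edgeR fit of loci was also run on simulated data. Python 3.11.15, pandas 2.3.3 and scipy 1.17.1 did the rest. The 559 sites inside RefSeq promoter windows (GRCm38.p6) were all CpG. Named loci were those with the largest differences beyond both Uhrf1-/- libraries, plus every listed gene with a site. The comparison, the gene lists and the rules were chosen with earlier results of these data known. The authors' p-values, which compare with wild type, and the knockdown table were not used.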

Additional observations from a re-analysis of the deposited data

How the results depend on the processing

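The mean difference of 5.57 points kept its sign under all 7 alternatives, with 8.18 from pooled reads, 4.94 with at least 20 reads and 5.34 to 5.80 when a Uhrf1-/- library was left out. The number of sites at least 20 points higher (1149) was 3327 with at least 5 reads, 107 with at least 20 reads and 603 at 30 points, and it was 1483 to 1757 without a Uhrf1-/- library. The number lower (204) was 825, 5 and 65 under the same settings, 77 past both Uhrf1-/- libraries and 430 to 508 without one of them; at least 20 reads leaves fewer sites. For edgeR, sites higher numbered 0 with at least 5 reads, 32 with at least 20 reads and 0 to 17 when a library was left out. By limma 239 sites were higher and 6 lower. Loci higher numbered 1 in the reported fit, 0 by limma, 7 with only the 3KR rescue and Uhrf1-/- libraries, 3 with sites joined at up to 500 bases, 3 with at least 1 site, 5 with at least 60 reads, 0 without the deep loci (an alternative chosen after seeing the data) and 0 to 7 when a library was left out. The cause was not tested. By wild-type level, the difference was 0.0369 (0 to 20%) and 3.20 (20 to 40%) with at least 5 reads, and with at least 20 reads 0.830 (20 to 40%), 10.5 (40 to 60%), 14.3 (60 to 80%) and 17.8 (above 80%). That last range holds sites of the deep loci. With at least 10 reads and without the deep loci, the difference above 80% was 10.3. For CpG islands (0.342) it was 0.194 with at least 10 reads and 0.362 without the deep loci. The 18 named loci kept their direction in all 54 alternative values. Values that leave out a Uhrf1-/- library could not do otherwise, since the loci were chosen beyond both libraries. The remaining values pool the reads of the same loci. No paired analysis was possible because the 3KR rescue has 1 library and its label carries no number to pair with Uhrf1-/-. Depth limits single sites: with a median of 14 reads or fewer, a difference of 20 points at 1 site was common between the knockout libraries too.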
